A study of Mus musculus with 6 samples.

Results

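The Ms4a family encodes small proteins that cross the cell membrane several times and sit beside receptors of immune cells. Its best known member, *Ms4a1*, is the B cell antigen CD20, and *Ms4a2* is a chain of the IgE receptor of mast cells. In the brain the family is known from macrophages. *Ms4a7* is widely used as a marker of macrophages at the brain's borders, and variants near the human genes are linked to the risk of Alzheimer's disease and to the level of soluble TREM2. Described here are 6 members: *Ms4a7*, *Ms4a6b*, *Ms4a6c*, *Ms4a6d*, *Ms4a4a* and *Ms4a4c*. They were matched by symbol among 32285 counted genes, of which 19 carry an Ms4a symbol. The members were chosen by a measured value, since *Ms4a7* stood higher in microglia of the INHIB mouse than in those of the NONE mice. That contrast is therefore given below as values without a test.

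The cells came from the whole brains of 3 male C57BL/6J mice at postnatal day 89, dissociated by cold Dounce homogenization and sorted for CD45 and CD11b. Mouse 2 (INHIB) was processed with inhibitors of transcription and translation (actinomycin D, triptolide and anisomycin), and mice 1 and 3 (NONE) without them. Cells of each mouse were captured with 2 kits of 10x Genomics, V3.0 and V3.1, which gave 6 libraries. INHIB is thus 1 mouse, and the inhibitors cannot be told apart from that animal. The V3.0 libraries of mice 1, 2 and 3 held 15109090, 17006892 and 6275898 UMIs, and the V3.1 libraries 11175790, 14693129 and 18872816.

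The V3.0 library of mouse 3 stood apart. Only 21.5% of its 4401 barcodes passed the filter on cell quality, and its barcodes had a median of 809 UMIs, against 70.0% to 76.8% passing in the other libraries. Comparisons were therefore also fitted without it, as far as this could be done, and no member's call changed. The microglial *Ms4a7* levels are given for each library. Cell barcodes were seldom shared, with 1 to 14 sequences in common in each of the 15 pairs of libraries. Of 29412 barcodes, 19725 were kept.

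Kept cells were sorted into types by marker genes, none of them an Ms4a gene. This gave 18976 microglia, 27 border macrophages with both *Mrc1* and *Pf4*, 104 monocytes, 271 neutrophils and 17 lymphocytes, and left 330 cells without a type. Border macrophages numbered 8, 14 and 5 in mice 1, 2 and 3. The sorting was checked with further genes. For border macrophages and neutrophils these had no part in it, while *Ly6c2*, *Ccr2*, *Plac8* and *Chil3* also served to find the monocytes. All 7 border macrophage genes checked, among them *Lyve1*, *Cd163* and *Folr2*, were present in the border macrophages. Together they came to 2190 CPM (UMIs scaled to a common total per sum), led by the scavenger receptor gene *Stab1* at 933.1 CPM. In microglia the same list summed to 262 CPM, of which *Stab1* alone made up 261 CPM. In monocytes it summed to 661 CPM, of which *F13a1* made up 652 CPM. Of the genes that served to find monocytes, *Ccr2* stood at 406 CPM in the border macrophages, while *Ly6c2* and *Plac8* were at 0. The part of microglial RNA in the border macrophage levels was not tested. Monocytes held *Plac8* at 3838 CPM, in part because it was used for sorting. The neutrophils carried 10 of 10 neutrophil genes, at 92316 CPM together and with *Camp* at 26050 CPM.

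*Ms4a7* marked the border macrophages. UMIs were summed over the cells of a type in each mouse, and *Ms4a7* stood at 594, 542 and 1238 CPM in the border macrophages of mice 1, 2 and 3. Monocytes of the same mice had 4.73, 17.6 and 12.9 CPM, from 10 UMIs in all, and microglia had 0.267, 4.99 and 1.82 CPM. The border macrophages of every mouse thus lay above every other sum. The order ran from border macrophages (792 ± 388 CPM, SD, n = 3 mice) to monocytes (11.7 ± 6.51 CPM, SD, n = 3), microglia (2.36 ± 2.41 CPM, SD, n = 3) and neutrophils, with monocytes and microglia overlapping between mice. A UMI of *Ms4a7* was seen in 70.4% of border macrophages (95% Clopper-Pearson interval 49.8% to 86.2%), in 8.65% of monocytes (4.03% to 15.8%) and in 0.158% of microglia (0.107% to 0.226%). Neutrophils served as a type that should lack these genes, and 0 of 271 held a UMI, which allows a share of up to 1.35% (95% Clopper-Pearson) at a median depth of 5792 UMIs. The share in microglia, at a median depth of 3510 UMIs, lay below that limit, and the 2 types could not be told apart by it. Border macrophages had a median of 3695 UMIs and monocytes 8014.5.

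The 3 Ms4a6 genes were the members carried by microglia in general. *Ms4a6b*, studied mostly in T cells, had 171, 164 and 177 CPM in the microglia of mice 1, 2 and 3. *Ms4a6d*, whose protein binds the macrophage receptor Vsig4, had 155, 162 and 154 CPM. *Ms4a6c* had 62.4, 58.5 and 70.9 CPM. All 3 were thus present at a like order in every mouse, with *Ms4a6c* lowest in mouse 2 and highest in mouse 3. Their UMIs were seen in 42.4% (*Ms4a6b*), 40.5% (*Ms4a6d*) and 17.9% (*Ms4a6c*) of microglia, against 0 of 271 neutrophils for *Ms4a6b* (up to 1.35%), 1.85% for *Ms4a6d* and 1.11% for *Ms4a6c* at the greater neutrophil depth. When every cell was thinned at random to 2000 UMIs (760 shallower microglia dropped out), the shares in microglia were 27.7%, 26.1% and 11.1%. In a microglial cell the 3 genes were caught together in 4.26% of cases, and 30.3% of microglia showed none of them. Cells with more of the 3 genes were also deeper, with medians of 3239, 3519, 3748 and 4059.5 UMIs for 0, 1, 2 and 3 genes seen.

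Outside microglia the Ms4a6 genes went different ways. *Ms4a6c* was highest in monocytes, at 1278, 1272 and 1517 CPM, followed by border macrophages at 349.6, 1053 and 885 CPM, with no overlap between the types. *Ms4a6b* stood at 594, 814 and 885 CPM in border macrophages and at 464, 636 and 562 CPM in monocytes. These ranges overlapped, although border macrophages lay higher in 3 of 3 mice. *Ms4a6d* had 489, 415 and 236 CPM in border macrophages, but 61.5, 221 and 123 CPM in monocytes, a range that takes in that of microglia.

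The Ms4a4 genes were scarce in microglia and were found in monocytes and border macrophages. *Ms4a4c*, a gene of inflammatory monocytes, had 331, 551 and 407 CPM in monocytes, 105, 16.0 and 177 CPM in border macrophages (7 UMIs in all) and 3.03, 4.27 and 4.50 CPM in microglia. *Ms4a4a*, whose protein partners the fungal receptor dectin-1 on macrophages, was scarce throughout, with 72 UMIs over all kept cells. It had 28.4, 40.2 and 12.9 CPM in monocytes, 69.9, 63.8 and 0 CPM in border macrophages (6 UMIs) and at most 0.302 CPM in microglia, so that border macrophages and monocytes overlapped. *Ms4a4c*, in contrast, was higher in monocytes than in border macrophages of every mouse. The border macrophages of mouse 3, with 5 cells, could not have shown *Ms4a4a* below 176.9 CPM at 3 counts.

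**Figure D1:**
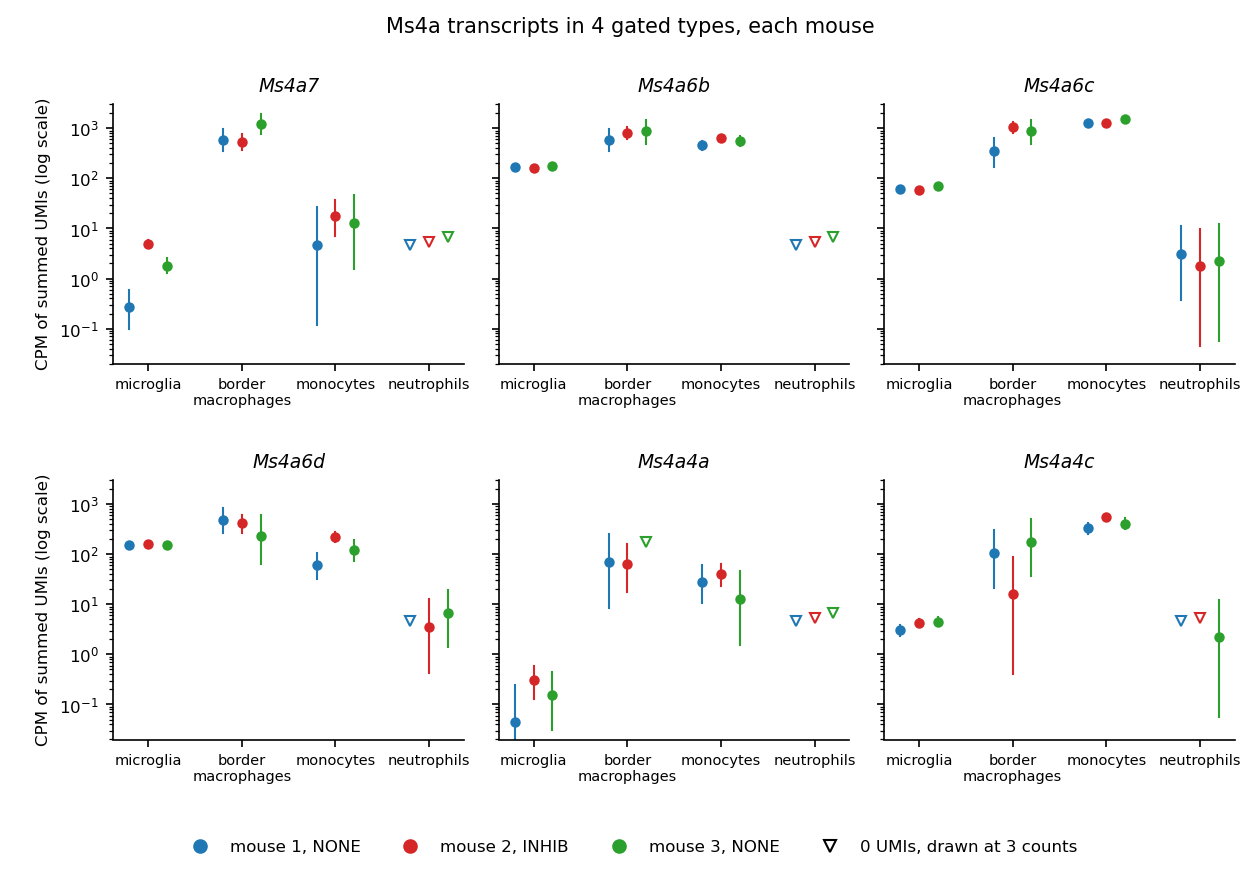
CPM of each member (log scale) in the summed UMIs of 4 sorted cell types, with 1 point for each mouse, bars for the 95% Poisson counting interval, and open triangles at the 3-count floor where a sum held 0 UMIs. *Ms4a7* lies at 542 to 1238 CPM in border macrophages and at no more than 17.6 CPM elsewhere, while *Ms4a6c* and *Ms4a4c* are highest in monocytes.

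The types were compared by the quasi-likelihood test of edgeR across 8426 genes, with the mouse as a block and sums of fewer than 10 cells left out. To be called, a gene needed an adjusted p under 0.05 and a log2 fold change larger than 0.58 either way. Only mouse 2 had 10 border macrophages, so this sum of 14 cells stood alone and was assumed to vary like the other types, and it comes from the INHIB mouse. Against microglia, 5 of the 6 members were called, each higher in border macrophages, where 6.37% of all genes were called and 3.86% were called higher. The members had a median log2 fold change of 3.25, against −0.47 over all genes tested. *Ms4a7* was 6.93 higher on the log2 scale (SE, standard error, 0.72, adjusted p = 9.87e-17, edgeR), in 3 of 3 mice by CPM. *Ms4a6c* was 4.22 higher (0.27), *Ms4a6b* 2.29 (0.28) and *Ms4a4a* 7.86 (1.82), the last with UMIs in the border macrophages of 2 of 3 mice. All microglia held only 12 UMIs of *Ms4a4a*, which stood at 7.71 without the filter on low counts. *Ms4a6d* was 1.25 higher (SE 0.38, adjusted p = 0.0223, edgeR), a call lost with DESeq2, without the filter on low counts, without mouse 3 (1.26) and without the block (1.47). *Ms4a4c* had a log2 fold change of 1.84 (SE 1.83, adjusted p = 0.648, edgeR), resting on 1 UMI in that sum, but was called at 3.54 when cells with at least 500 genes were kept. Without the V3.0 library of mouse 3, *Ms4a7* stood 6.95 higher and the same 5 members were called.

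With sums of at least 5 cells, a choice made after seeing the data, border macrophages of all 3 mice entered the fit. Then 6 of the 6 members were called higher, where 11.9% of 7051 genes were called and 5.22% were called higher. *Ms4a7* stood 8.36 above microglia (SE 0.43), *Ms4a4c* 3.98 (0.85) and *Ms4a6d* 1.26 (0.29), each higher in 3 of 3 mice. Dropping the limit on microglial markers gave 67 border macrophages and *Ms4a7* at 8.54, *Ms4a4c* at 4.32 and *Ms4a6d* at 1.29, all called. Stricter sorting, or leaving out mouse 2, left no sum of 10 border macrophages to fit.

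The relatives *Tmem176a* and *Tmem176b*, which resemble the Ms4a proteins, were both higher in border macrophages than in microglia, by 1.64 and 1.39 on the log2 scale. Of 10 genes linked to Ms4a proteins (*Trem2*, its adaptor *Tyrobp*, Fc receptor genes, the dectin-1 gene *Clec7a* and the sheddases *Adam10* and *Adam17*), 9 could be tested, 0 were called higher and 2 lower by edgeR. These were the lipid receptor gene *Trem2* (−1.73) and the IgG receptor gene *Fcgr3* (−1.26), of which DESeq2 called *Trem2* alone. At an unadjusted p below 0.05 lay also *Fcgr2b* (0.75), *Adam10* (−1.30) and *Adam17* (−1.54), and the last 2 were called lower as well with sums of at least 5 cells.

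Monocytes carried most of the 6 members above microglia. In the same fit 5 of the 6 members were called, all higher, where 51.2% of all genes were called and 23.6% were called higher. The members' median was 3.60, against −0.19 over all genes tested. *Ms4a4c* was 7.06 higher (SE 0.20, adjusted p = 8.35e-108, edgeR), *Ms4a4a* 7.52 (0.89), *Ms4a6c* 4.68 (0.10) and *Ms4a6b* 1.99 (0.12), each in 3 of 3 mice. Microglia held 12 UMIs of *Ms4a4a* in all, against 24 in monocytes, and it was called at 7.46 without the filter on low counts. *Ms4a7* was 2.51 higher (SE 0.80, adjusted p = 0.00470, edgeR) in 3 of 3 mice, on 10 monocyte UMIs, and was no longer called with cells of at most 8000 UMIs (2.28) or without the block (2.68). It did not pass the filter on low counts without mouse 2, so it could not be tested there, and it stood at 2.33 to 2.40 without mouse 1 or 3. *Ms4a6d* had a log2 fold change of 0.15 (SE 0.19, adjusted p = 0.533, edgeR), with microglia above monocytes in 2 of 3 mice. *Ms4a4c* stayed at 7.06 and *Ms4a7* was at 2.57 without the V3.0 library of mouse 3. The direction of *Ms4a6d* turned with DESeq2 (−0.11), with at most 8000 UMIs (−0.03) and without mouse 2 (−0.51).

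Of the other 13 Ms4a genes, 2 passed the filter on low counts, largely through their UMIs in monocytes. These were *Ms4a4b*, a T cell gene, with 46 UMIs in the 104 monocytes and 28 in all microglia, and *Ms4a8a*, a macrophage gene, with 43 and 5. *Tmem176a* and *Tmem176b* were lower in monocytes than in microglia, with log2 fold changes of −1.01 and −1.06. Among the 9 linked genes, *Tyrobp* (0.90), *Fcer1g*, the shared chain of activating Fc receptors (0.69), and *Fcgr4* (2.49) were higher. *Trem2* (−4.85), *Fcgr1* (−2.18), *Fcgr3* (−1.41) and *Adam10* (−1.36) were lower.

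Border macrophages and monocytes differed in 2 of the 6 members, called in opposite directions, where 8.17% of all genes were called, 3.52% higher and 4.64% lower. *Ms4a7* was 4.42 higher in border macrophages (SE 0.77, adjusted p = 1.34e-06, edgeR), in 3 of 3 mice by CPM. *Ms4a4c* was lower in border macrophages, at −5.22 (SE 0.78, adjusted p = 1.02e-08, edgeR), also in 3 of 3 mice. Without the V3.0 library of mouse 3 these were 4.38 and −5.22. The other 4 had log2 fold changes of 1.10 (*Ms4a6d*), −0.46 (*Ms4a6c*), 0.30 (*Ms4a6b*) and 0.34 (*Ms4a4a*). The members' median was 0.32, against −0.30 over all genes tested. With sums of at least 5 cells, 2 members were called higher and 2 lower, where 16.7% of genes were called, 5.36% higher and 11.4% lower. *Ms4a7* then stood at 5.67 and *Ms4a4c* at −3.10, and *Ms4a6d* (1.11) and *Ms4a6c* (−1.07) were called as well. *Tmem176a* (2.66), *Tmem176b* (2.46), *Trem2* (3.12) and *Fcgr1* (1.70) were higher in border macrophages and *Tyrobp* (−0.79) was lower, the last not called by DESeq2.

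Neutrophils held next to no UMIs of the 6 members. Of the 6 members, 3 were called, all lower than in microglia, where 67.5% of all genes were called and 40.7% were called lower. *Ms4a6d* was lower at −4.39 (SE 0.40, adjusted p = 9.92e-23, edgeR) and *Ms4a6c* at −3.39 (0.45), each in 3 of 3 mice, and at −4.65 and −3.32 without the V3.0 library of mouse 3. *Ms4a6b*, at 0 UMIs in neutrophils, was at least 94.6-fold higher in microglia when set against a floor of 3 counts over all neutrophils (1.80 CPM). Against the same floor *Ms4a7* was at least 369.8-fold higher in border macrophages, and *Ms4a4a* at least 17.5-fold higher in monocytes. These bounds are ratios of CPM without the TMM scaling of the fit, in which differences from neutrophils were smaller (*Ms4a6c* was 26.4-fold higher in microglia by CPM). *Ms4a4c* had 1 neutrophil UMI, and its CPM ratio of monocytes to neutrophils was 768 (95% counting interval 138 to 30352). No median is given, since 3 members had 0 UMIs. Of the other Ms4a genes, *Ms4a4b* was called higher in neutrophils (4.84, SE 1.01), on 9 UMIs in 1 cell, and was not called without mouse 1 or with at most 8000 UMIs. *Ms4a8a*, at 0 UMIs in neutrophils, was called higher by DESeq2 and not by edgeR. By edgeR all 9 linked genes differed, 3 higher and 6 lower in neutrophils (*Fcgr3*, at −0.63, was not called by DESeq2), with *Fcgr4* at 3.34 and *Fcgr1* at −6.94, while *Tmem176a* stood at −7.45 and *Tmem176b* at −5.64.

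Border macrophages also vary among themselves, and many carry the antigen-presenting MHC class II genes. Of the 27, 19 passed a threshold on these transcripts. *Ms4a7* had 433, 515 and 913 CPM in the MHC class II cells of mice 1, 2 and 3, and 746, 683 and 2943 CPM in the 4, 3 and 1 others. It was thus lower in the MHC class II cells of each mouse, as were *Ms4a6b* and *Ms4a6d*, while *Ms4a4c* had its 7 UMIs in them alone. With so few cells the comparison could not be fitted, and these directions are values without a test. The inhibitors could be compared in border macrophages only with sums of at least 5 cells, in 1 INHIB mouse assumed to vary like the 2 NONE mice. With 1 residual degree of freedom, edgeR called 2 of 537 genes (0.372%), with 16 at an unadjusted p below 0.05, and DESeq2 called 0. None of the 4 members tested was among the called genes, but a fit of this size cannot show that a member is unchanged. The *Ms4a7* value of the INHIB mouse (542 CPM) lay below both NONE mice (594 and 1238 CPM).

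Microglia with interferon response genes carried more of several members. A threshold on *Ifit2*, *Ifit3*, *Isg15*, *Irf7* and related genes picked out 62, 113 and 67 cells of mice 1, 2 and 3. In these, *Ms4a4c* stood at 45.9, 35.4 and 52.2 CPM, against 2.57, 3.73 and 3.89 CPM in the other microglia. *Ms4a6b* stood at 309, 329.6 and 257 CPM, against 169, 162 and 176 CPM, and *Ms4a6c* at 108, 113 and 124 CPM, against 61.9, 57.5 and 70.3 CPM. For each of the 3 genes the interferon cells of every mouse lay above all the other microglia. By edgeR 3 of the 5 members tested were called, all higher, where 2.82% of 11642 genes were called and 2.47% were called higher, and *Ms4a4a* had too few UMIs to test. The members' median was 0.89, against −0.05 over all genes tested. *Ms4a4c* rose by 3.71 on the log2 scale (SE 0.45, adjusted p = 8.49e-15, edgeR), *Ms4a6b* by 0.89 (SE 0.11, adjusted p = 1.43e-14, edgeR) and *Ms4a6c* by 0.93 (SE 0.17, adjusted p = 2.88e-06, edgeR), each in 3 of 3 mice. These were 3.76, 0.90 and 0.96 without the V3.0 library of mouse 3. *Ms4a6d* had an adjusted p of 0.0128 (edgeR) but a log2 fold change of 0.42 (SE 0.12), under the threshold. *Ms4a6d* was called at 0.63 when the threshold was applied to cells thinned to 2000 UMIs, and *Ms4a6c* was not called without mouse 2 (0.83), where 167 genes were called in place of 328. *Ms4a7* had 1 UMI in these cells and a log2 fold change of −1.44 (SE 1.56), not called. Of the 9 linked genes, the IgG receptor genes *Fcgr1* (1.35) and *Fcgr4* (1.85) rose. Of 5 monocyte genes tested, *Plac8* rose (3.11, SE 0.34) and *Ccr2*, *Chil3*, *Hp* and *Ly6c2* were not called. The microglial gene *Fcrls* (−0.62) and *Stab1* (−0.68) fell, while the microglial genes *Cx3cr1*, *Sparc* and *P2ry13* were not called, the same by edgeR and by DESeq2. Since *Ms4a4c* and *Ms4a6c* are also high in monocytes, a part of monocyte RNA in these cells is possible, and it was not tested.

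The promoters of the members were searched for the core of the interferon-stimulated response element, GAAANNGAA, and for GAGGAAGT, bound by the myeloid factor PU.1, on both strands. RefSeq promoters (build GRCm38.p6) were at hand for 5 members, with 6 entries, since *Ms4a7* has 2, and there was none for *Ms4a6d*. In the 250 bases before the start, the interferon core was found in 3 members, *Ms4a6b*, *Ms4a6c* and *Ms4a7*, and in 7.13% of all 32851 promoters. It was not found in the windows of *Ms4a4a* or *Ms4a4c*, the member with the greatest rise. The *Ms4a4c* window (11407411 to 11407660) lies inside the gene, whose annotated start is at 11404770, and the bases before that start were not searched. The windows of *Ms4a6b* (from 11518309, with the gene from 11516512) and the *Ms4a7* window from 11334696 lie inside their genes as well. The PU.1 letters were in 0 of the members' windows and in 2.44% of all promoters. Such a match describes the letters and is not evidence of binding.

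In microglia with disease-associated genes (*Cst7*, *Lpl*, *Itgax*, *Spp1* and others), *Ms4a6c* was higher. There were 47, 63 and 35 such cells in mice 1, 2 and 3. *Ms4a6c* stood at 67.5, 158 and 123 CPM in them, against 62.4, 57.3 and 70.6 CPM in other microglia, higher in 3 of 3 mice, although mouse 1 lay within the range of the other microglia. *Ms4a6b* stood at 109.8, 121 and 109 CPM, against 172, 165 and 178 CPM, lower in 3 of 3. *Ms4a7* had 276.5 CPM in mouse 2, from 89 UMIs in 7 cells, and 0 in mice 1 and 3, where the 3-count floors were 12.7 and 20.5 CPM. These 89 of the 132 microglial *Ms4a7* UMIs of mouse 2 are part of the value that chose the members, so *Ms4a7* is described here without a test. Of the 4 others tested, 2 were called, both higher, where 3.24% of 11621 genes were called and 2.36% were called higher. *Ms4a6c* rose by 1.02 (SE 0.19, adjusted p = 1.17e-05, edgeR), and was not called without mouse 2 (0.51) or when cells were thinned first (0.98). It was at 0.97, and called, without the V3.0 library of mouse 3. *Ms4a6c* is also high in monocytes and border macrophages, and a part of their RNA in these cells was not tested.

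The other values in these cells were less firm. *Ms4a4c* rose by 2.23 (SE 0.70, adjusted p = 0.0349, edgeR) in 3 of 3 mice, on 12 UMIs, and lost the call with DESeq2, without the filter on low counts (2.18), at 500 genes (2.05), at 8000 UMIs (2.16), with stricter sorting (1.64), and without mouse 1 (2.03), mouse 2 (1.95) or the MHC class II cells (2.16). With cells thinned first, *Ms4a4c* turned to −8.53 and was not called. *Ms4a6b* had a log2 fold change of −0.48 (SE 0.17, adjusted p = 0.0812, edgeR), and was called lower with at most 8000 UMIs (−0.62) and without the MHC class II cells (−0.62). *Ms4a6d* was at −0.10 (SE 0.16). The count of genes called fell from 377 to 167 without mouse 2, to 224 without mouse 1 and to 74 with cells thinned first. *Tmem176a* (0.71) and *Fcgr4* (1.72) rose as well, and 1 of the 9 linked genes was called. The microglial gene *P2ry13* fell (−0.66), by edgeR and by DESeq2, while *Cx3cr1*, *Fcrls*, *Sparc* and the 5 monocyte genes tested were not called.

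**Figure D2:**
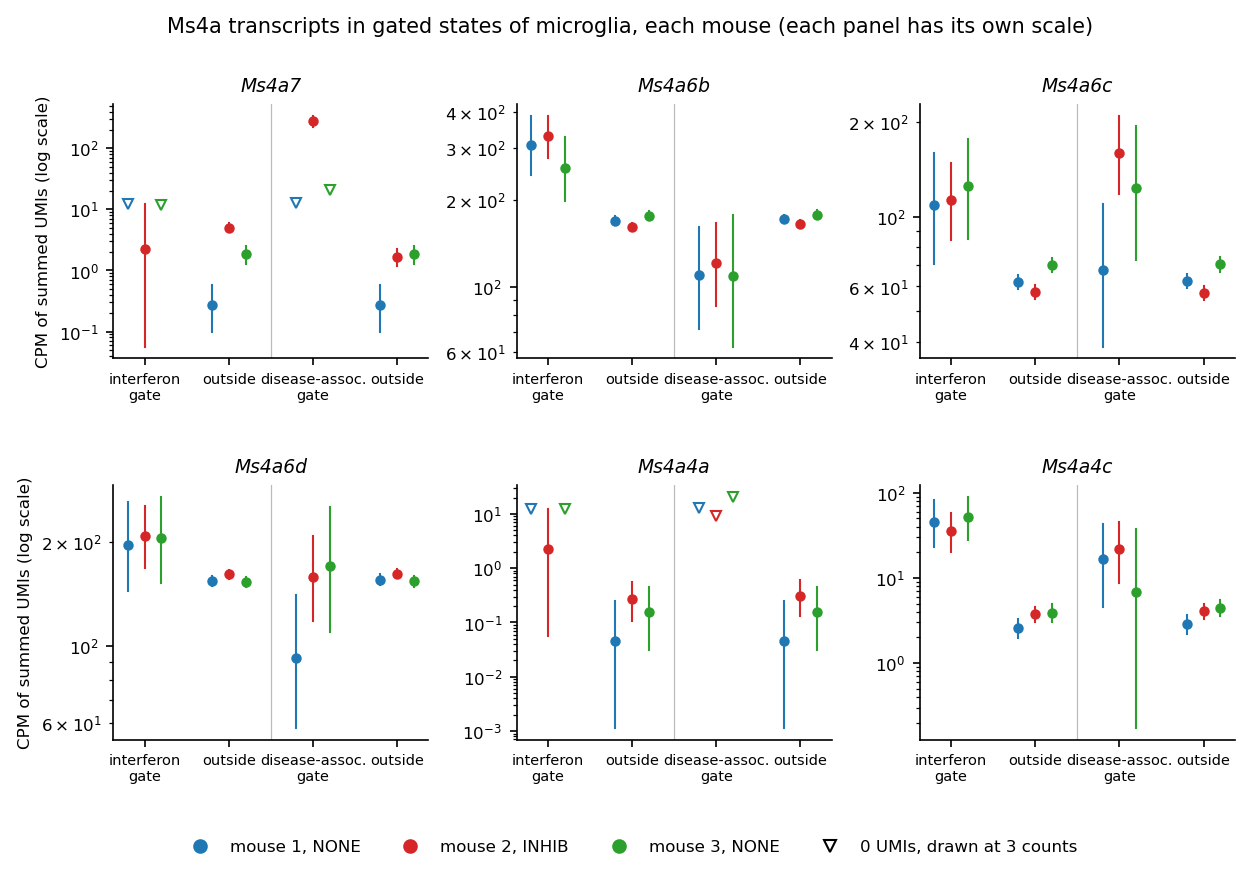
CPM of each member (log scale, with its own range in each panel) in microglia inside and outside the interferon and disease-associated thresholds, with 1 point for each mouse, bars for the 95% Poisson counting interval, and open triangles at the 3-count floor for 0 UMIs. *Ms4a4c* lies at 35.4 to 52.2 CPM in interferon microglia and at 2.57 to 3.89 CPM in the others, and the disease-associated *Ms4a7* value of 276.5 CPM is that of mouse 2 alone.

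The contrast that chose the members rested on few cells. Microglial *Ms4a7* came to 6, 132 and 36 UMIs in mice 1, 2 and 3, held by 5, 21 and 4 cells. The INHIB mouse stood at 4.78 times the NONE mean of 1.04 CPM. Cells with at least 3 UMIs numbered 0, 8 and 2, and these 10 cells held 148 of the 174 UMIs (85.1%), up to 36 in a cell. All 10 passed the threshold on MHC class II transcripts, which 0.195% of microglia did (7, 19 and 11 cells). These 37 microglia held 90.2% of the microglial *Ms4a7* UMIs. The 10 cells had a median of 10 UMIs of the microglial markers, against 37 in microglia at large. Of them 7 held a UMI of *Mrc1* or *Pf4*, as did 1.23% of all microglia. The part of border macrophage RNA in these cells was not tested. Without the MHC class II microglia the levels were 0.134, 0.455 and 0.101 CPM, from 3, 12 and 2 UMIs, and the ratio was 3.87.

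By library the contrast moved further. *Ms4a7* stood at 0.233, 6.10 and 0.311 CPM in the V3.0 libraries of mice 1, 2 and 3 and at 0.314, 3.69 and 2.11 CPM in the V3.1 libraries, so that both INHIB libraries lay above all 4 NONE libraries. The ratio was 22.4 with V3.0 alone, 3.04 with V3.1 alone, 4.19 without the V3.0 library of mouse 3, 10.4 with at most 8000 UMIs and 2.29 with stricter sorting. The other members had ratios of 0.945 (*Ms4a6b*), 0.877 (*Ms4a6c*), 1.05 (*Ms4a6d*), 1.13 (*Ms4a4c*) and 3.08 (*Ms4a4a*, from 1, 8 and 3 UMIs). Over the same alternatives *Ms4a4a* ran from 1.81 with V3.1 alone to 10.8 with V3.0 alone. *Ms4a4c* was below 1 with stricter sorting (0.759) and without the MHC class II cells (0.974), and *Ms4a6b* above 1 with V3.0 alone (1.02) and with stricter sorting (1.01). All of these are a description of the contrast used in the choice.

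**Figure D3:**
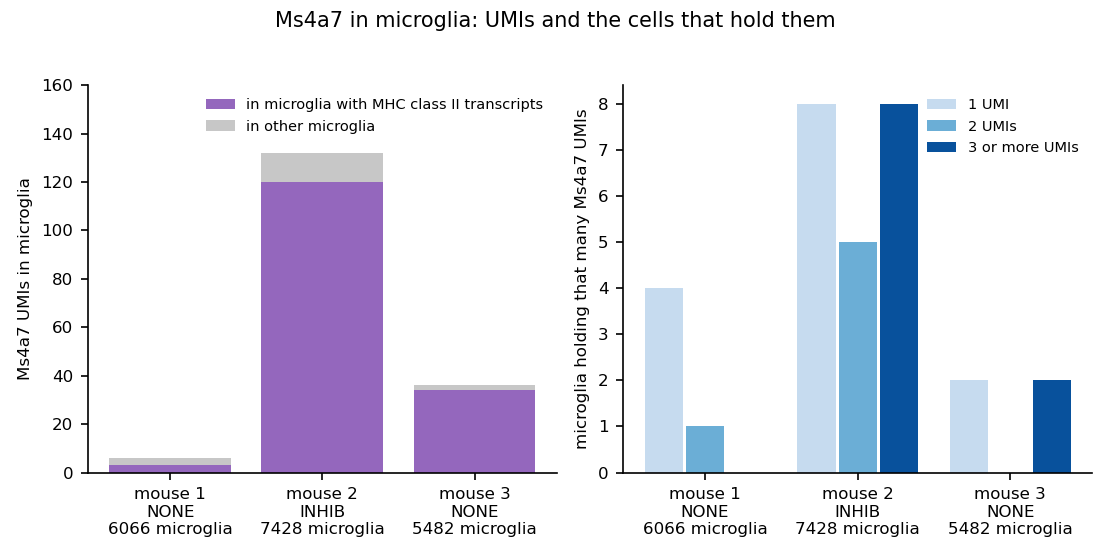
Left, *Ms4a7* UMIs in the microglia of each mouse, split by whether the cell passed the threshold on MHC class II transcripts; right, the number of microglia that hold 1, 2 or at least 3 *Ms4a7* UMIs. Of 132 UMIs in mouse 2, 120 lay in MHC class II microglia, and 8 cells held at least 3.

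The series was made to compare the kits, and no member was called between them. In the 6 library sums of microglia, V3.0 and V3.1 gave *Ms4a6b* at 161 ± 6.01 and 175 ± 8.002 CPM (SD, n = 3 libraries each), *Ms4a6d* at 151 ± 5.03 and 162 ± 6.44 CPM, *Ms4a6c* at 59.3 ± 5.76 and 68.2 ± 6.60 CPM and *Ms4a4c* at 3.29 ± 0.984 and 4.59 ± 0.408 CPM. For each of these 4 genes V3.1 lay above V3.0 in 3 of 3 mice. By edgeR 0 of the 5 members tested were called, where 2.99% of 12038 genes were called, and DESeq2 called 0 of the 5. At an unadjusted p below 0.05 lay 2 members, *Ms4a4c* at 0.58 (SE 0.24, adjusted p = 0.125, edgeR) and *Ms4a6c* at 0.24 (SE 0.09, adjusted p = 0.0909, edgeR). *Ms4a7* was at −0.37 (SE 0.80). The members' median was 0.13, against 0.00 over all genes tested. With the mouse as a block the number of genes called went from 360 to 539 and none of the 5 members was called. *Ms4a6c* (0.22) and *Ms4a4c* (0.57) then had adjusted p-values under 0.05 (edgeR) and missed the threshold on the fold change alone. Without the V3.0 library of mouse 3, *Ms4a4c* was at 0.66 and *Ms4a6c* at 0.30, neither called. *Ms4a4c* was called at 0.80 once MHC class II microglia were set aside, after seeing the data. Leaving out mouse 1 or 2 moved the count to 152 and 111.

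Many UMIs of the rarer members lay in cells without a type. Of 722 *Ms4a7* UMIs, 64.5% were in the 330 untyped cells, 24.1% in microglia and 9.97% in border macrophages. The untyped cells with both microglial and border macrophage markers had *Ms4a7* at 749.5 CPM, and 85.0% of these 40 cells held a UMI. The 23 cells with *Mrc1* or *Pf4* UMIs too few for a border macrophage and too few markers of another type, all of which passed the MHC class II threshold, had 681 CPM, the 168 with markers of no type 229 CPM, and the 42 with microglial and neutrophil markers 0. The first 2 of these groups held *Ms4a7* at levels near those of border macrophages. The other 57 untyped cells, with microglial markers and few *Mrc1* or *Pf4* UMIs, held 66 *Ms4a7* UMIs (9.14% of all). *Ms4a6d*, in contrast, had 96.4% of its 11211 UMIs in microglia and *Ms4a6b* 92.3% of 12669, while 16.2% of the *Ms4a6c* UMIs and 46.1% of the *Ms4a4c* UMIs lay in the 104 monocytes.

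Across the 10 sums of mouse and type, which share libraries and depth, the members most alike were *Ms4a6b* and *Ms4a6c* (Pearson r = 0.943 of log2 CPM) and *Ms4a6b* and *Ms4a6d* (0.934). The least alike were *Ms4a7* and *Ms4a4c* (0.518). Among 7833 genes, those most like *Ms4a7* were the ferritin gene *Fth1* (0.962), *Ifi213*, *Lcmt1*, the MHC class II gene *H2-Eb1* and the clock gene *Per1*. *Ms4a6b* was most like *Eef1d* (0.997), *Rpl3*, *Npm1*, *Rpl36a* and *Cd48*. *Ms4a6c* was most like the ribosomal gene *Rpl7* (0.997), with *Klf4* and *Rps7* also among its nearest. *Ms4a6d* was most like *Cdk14* (0.996), with *Gamt*, *Tcea1* and *Spr* also among its nearest. *Ms4a4a* was most like the aryl hydrocarbon receptor gene *Ahr* (0.999), *Ciita*, *Myof*, *Pfdn5* and *Pltp*, and *Ms4a4c* most like *B4galnt1* (0.983), *Btf3*, *Mrpl30*, *Selenow* and *Atox1*. These correlations are descriptions, in which differences between the types count for most. Border macrophages enter them as 1 sum, the 14 cells of mouse 2. For *Ms4a7* and *Ms4a4a* this small sum holds the highest value, and in it *Ahr* stood at 63.8 CPM and *Lcmt1* at 31.9 CPM.

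All 19 Ms4a genes lie on chromosome 19 (build GRCm38), and the 6 members span 283811 bases from 11321039 to 11604849. *Ms4a7* (ENSMUSG00000024672) lies at 11321039 to 11336146 on the minus strand, and *Ms4a4a* (ENSMUSG00000101389) at 11375523 to 11392790 on the plus strand. *Ms4a4c* (ENSMUSG00000024675, 11404770 to 11427246), *Ms4a6c* (ENSMUSG00000079419, 11469366 to 11482192) and *Ms4a6b* (ENSMUSG00000024677, 11516512 to 11531256) follow on the plus strand. *Ms4a6d* (ENSMUSG00000024679, 11586604 to 11604849) closes the span on the minus strand. *Ms4a4c* and *Ms4a6c*, the members highest in monocytes, flank *Ms4a4b*, which lies in the span with *Ms4a4d*. Transcripts of *Ms4a6b* and *Ms4a6c* share a run of 96 identical bases, *Ms4a6b* and *Ms4a6d* 81, *Ms4a6c* and *Ms4a6d* 44, *Ms4a4c* and *Ms4a4b* 127, and *Ms4a4c* and *Ms4a4d* 57. Only the runs of 96 and 127 bases can hold a whole read, which cannot be given to either gene, so the levels of *Ms4a6b*, *Ms4a6c* and *Ms4a4c* carry that uncertainty. *Ms4a6c* overlaps *BE692007* and *Ms4a6b* overlaps *Gm19261*, both on the opposite strand and counted apart, and *Ms4a4c* overlaps *Gm5692*, which was not counted. *BE692007* itself was called higher with V3.1 than with V3.0 (1.20, SE 0.34), and higher in monocytes than in microglia (4.53), as *Ms4a6c* was.

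**Figure D4:**
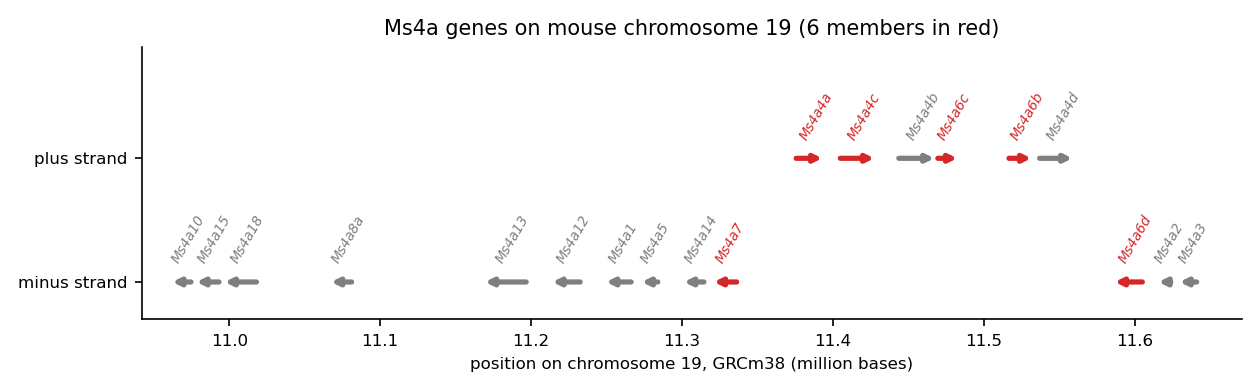
Positions of the 19 Ms4a genes on mouse chromosome 19 (build GRCm38, in megabases), with each arrow drawn to scale along its strand and the 6 members in red. The members span 283811 bases, with *Ms4a7* and *Ms4a6d* on the minus strand and the 4 others on the plus strand.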

How the data were processed

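Single-cell RNA-seq of sorted brain cells was used from 6 libraries of 3 mice. The authors deposited a UMI count for each gene and cell barcode, and their processing notes name bcl2fastq, Cell Ranger 5.0.0 and Seurat with builds GRCm38 and mm10. A barcode was kept if it had between 1000 and 4000 genes, no more than 12000 UMIs, and 15% or less of its UMIs from mitochondria. No doublet caller was run. The marker thresholds leave out cells with many markers of more than 1 type, but they allow some (up to 2 microglial markers in border macrophages, 1 UMI of *Mrc1* or *Pf4* in microglia), so doublets may remain, and a limit of 8000 UMIs was tried as an alternative.

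Microglia needed at least 3 of *P2ry12*, *Tmem119*, *Siglech*, *Sall1*, *Olfml3* and *Gpr34*, with at most 1 UMI of *Mrc1* and *Pf4*. Border macrophages needed both *Mrc1* and *Pf4* with at least 4 UMIs, monocytes at least 2 of *Ly6c2*, *Ccr2*, *Plac8* and *Chil3*, and neutrophils *S100a8* and *S100a9* at 1% of UMIs or more, each with at most 2 microglial markers. Interferon microglia had at least 3 of 8 interferon genes, disease-associated microglia at least 2 of 7 genes, and MHC class II cells *Cd74* with at least 3 UMIs of *H2-Aa*, *H2-Ab1* and *H2-Eb1*. Checks for other cells gave T, NK or B cell genes (also used for sorting) at 42.2 CPM in microglia, neuron genes at 0.786 CPM and red cell genes at 1.91 CPM. Of the 42.2 CPM, *Cd79b* alone made up 41.7 CPM.

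UMIs were summed per mouse and type (per library for the kits) and given as CPM of the sum. Sums were compared by edgeR 4.0.16 (TMM, filterByExpr, quasi-likelihood) in R 4.3.3 across all genes, with Benjamini-Hochberg adjustment over all genes tested, against DESeq2 1.42.0. Tests between types used the mouse as a block, since each mouse gave cells of every type, and the kit comparison did not. For the kits, profiles of the same mouse correlated over 12038 genes at r = 0.284, 0.428 and 0.112 once each kit's mean was removed, above the other pairs. The p-values measure a spread between mice or libraries, which edgeR shares in part across genes and, between types, across the types. The main fit held border macrophages of 1 mouse, so no spread between mice of that type enters it. Intervals and floors cover counting error only. The methods were tested on simulated data with an equal spread for every gene and, apart from genes changed on purpose, a mean profile shared by all types. That setting does not cover genes nearly absent from a type. Python 3.11.15 with numpy 2.4.6, pandas 2.3.3, scipy 1.17.1 and matplotlib 3.10.9 was used, with gene models of GENCODE M21. Motifs were searched in the 250 bases before the start held by each RefSeq promoter entry.

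The members and gene lists were chosen with earlier results of these data known. Genes named are the 6 members, the other Ms4a genes, *Tmem176a* and *Tmem176b*, 10 genes linked to Ms4a proteins, type markers and, for each member, the 5 genes with the highest correlation of log2 (CPM + 1) among genes with a mean of at least 10 CPM. *BE692007* was named for its overlap with *Ms4a6c*. Alternatives were DESeq2, no filter on low counts, at least 500 genes, at most 8000 UMIs, stricter sorting, cells thinned to 2000 UMIs, each mouse or the V3.0 library of mouse 3 left out, and the block added or dropped. Stricter sorting allowed fewer microglial markers in other types. In microglia it allowed no UMI of *Mrc1*, *Pf4*, *Cbr2*, *F13a1*, *Lyve1*, *Cd163*, *Stab1* or *Folr2*. It left 8461 of 18976 microglia, since many microglia hold *Stab1*. After seeing the data, sums of at least 5 cells, no limit on microglial markers in border macrophages, and leaving out MHC class II microglia were added.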

Additional observations from a re-analysis of the deposited data

Results flagged for a closer look

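In 3 of 21 groups of 4 NONE libraries, which come from 2 mice, a library was marked as far from the rest, where chance flags about 1 in 20 groups. That rate does not hold for 2 of the 3, in which the other libraries were at 0 and any UMI would be marked. The V3.1 library of mouse 3 had microglial *Ms4a7* at 2.11 CPM, from 35 UMIs, against 0.233 to 0.314 CPM in the other NONE libraries. Those values were part of the contrast that chose the members, so this flag is a description and is not set against the chance rate. The V3.0 library of mouse 1 had *Ms4a4a* at 132 CPM in border macrophages, from 2 UMIs, with the other 3 libraries at 0. The V3.1 library of mouse 3 had *Ms4a4c* at 2.74 CPM in neutrophils, from 1 UMI, with the other 3 at 0.

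The 330 untyped cells, which entered no test, held every member above the limit that a count of 0 allows. Their levels were 313 CPM for *Ms4a7*, 303 CPM for *Ms4a6b*, 519 CPM for *Ms4a6c*, 154 CPM for *Ms4a6d*, 20.1 CPM for *Ms4a4a* and 89.3 CPM for *Ms4a4c*.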

How the results depend on the processing

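Over the alternatives, 430 log2 fold changes of the members tested were computed; 390 kept their direction and their side of the thresholds, 17 lost the call, 14 gained it and 9 changed direction. Causes were not tested unless stated. In neutrophils against microglia 67 of 68 kept both, and in the interferon microglia 53 of 55. In the disease-associated microglia 32 of 48 did, with *Ms4a7* not counted there. Neutrophils held 0 UMIs of *Ms4a7*, *Ms4a6b* and *Ms4a4a* and 1 of *Ms4a4c*, so their tally says little about stability. *Ms4a4c* in neutrophils counts as kept, although it ran from −0.62 to −7.85. A member that fell to the filter on low counts in a setting has no value there. For *Ms4a7* and *Ms4a4a* in monocytes and neutrophils against microglia, leaving out each mouse thus gave 2 values and not 3. The same held for *Ms4a7* in interferon microglia and the kits.

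The changes of direction were *Ms4a6d* in monocytes against microglia (DESeq2 −0.11, at most 8000 UMIs −0.0311, without mouse 2 −0.51, with leaving out each mouse giving −0.51 to 0.49), *Ms4a4a* in neutrophils (DESeq2 2.53), and in disease-associated microglia *Ms4a6d* (stricter sorting 0.0757, thinned 0.27, leaving out each mouse −0.25 to 0.12) and *Ms4a4c* (thinned −8.53). *Ms4a6b* in INHIB border macrophages was at −0.18 without the limit on microglial markers. None of these 9 values was called.

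Counts of genes called moved by more than 1.5 times as follows. Sums of at least 5 cells, which add 2 mice, gave 842 for border macrophages against microglia and 1180 against monocytes, and no limit on microglial markers gave 906 and 2124. With at most 8000 UMIs monocytes against microglia gave 2681 and border macrophages against monocytes 406, the latter also 392 with DESeq2 and 1133 at 500 genes. Disease-associated microglia gave 218 with DESeq2, 183 with stricter sorting and 74 thinned. Leaving out each mouse gave 167 to 413 there, 167 to 302 in interferon microglia and 111 to 391 for the kits, with fewer samples. For INHIB border macrophages, DESeq2 and no limit on microglial markers gave 0 (0 and 51 at an unadjusted p below 0.05). The microglial *Ms4a7* ratio, 4.78 in the main setting, was 22.4 with V3.0 alone and 10.4 with at most 8000 UMIs. It was 3.04 with V3.1 alone and 2.29 with stricter sorting. The mean share of microglia with *Ms4a6b*, 42.6%, was 27.8% thinned, where fewer UMIs are read by construction. It moved by less than 1.5 times, but by more than the spread between mice (SD 1.85), to 39.7% with stricter sorting and 38.1% at 500 genes. The share with *Ms4a7* went from 0.146% to 0.0820% with stricter sorting, within its spread (SD 0.118).

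Of 38 tests of members with the block added or dropped, 2 changed the call, those of *Ms4a6d* in border macrophages and *Ms4a7* in monocytes against microglia. Where it could be fitted without the V3.0 library of mouse 3, no member's call changed. The comparison within border macrophages by MHC class II could not be fitted under any setting. Stricter sorting and leaving out mouse 2 could not be fitted for border macrophages against microglia or monocytes, nor those 2 types alone for border macrophages against microglia, since no border macrophage sum or too few sums were left. For INHIB border macrophages, stricter sorting, leaving out the V3.0 library of mouse 3 and library sums could not be fitted.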
